A study of Rattus norvegicus with 6 samples.

Results

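Collagens, the proteins that assemble with them and the enzymes that mature them form the scaffold of the lung. A list of 42 such genes, chosen by name, was followed in the lungs of Lewis rats, which are inbred. Of these genes, 41 were measured among 14217 named genes, through 68 probe sets that the array annotation assigns to 1 gene each. Thbs1 had no such probe set and was not analysed here. The silica group held 3 rats that inhaled aerosolized silica at 6.2 mg/m3, 6 hours daily on 5 days of each week, during 6 weeks. The control group held 3 rats that inhaled filtered air in the same way. Each rat gave 1 array. The labels name no transgene or further treatment in either group, and they state neither the age of the rats nor the lobe sampled nor the time from the last exposure to sampling.

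Fibrillar collagens are made as procollagen chains that are hydroxylated, wound into triple helices and held by a chaperone in the endoplasmic reticulum. After secretion the end peptides are cut off, the molecules line up into fibrils, and lysyl oxidases crosslink them. Proteoglycans and matricellular proteins set fibril thickness and spacing, elastic fibres give the lung its recoil, and type IV collagen forms the sheet under epithelium and endothelium. In the lung most interstitial collagen comes from fibroblasts and related mesenchymal cells, and its excess is the hallmark of the silicotic nodule.

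The values are probe set signals on a linear scale, scaled by the submitters to one mean per array, and a gene is represented by its brightest probe set. Log2 fold changes are silica minus control on the log2(signal + 16) scale, given as the estimate ± SE. They come from limma, with p adjusted by the Benjamini-Hochberg method over all 31042 probe sets and a threshold of 0.05. Array medians lay between 7.38 and 7.42 on this scale. The defining lung genes were present: the surfactant gene Sftpc had 23196 ± 518 in control (SD, n = 3) and the alveolar type 1 gene Ager 15602 ± 551. The ratio of 3-prime to 5-prime signal of beta-actin and GAPDH, a measure of RNA and labelling quality, was 0.99 to 1.23 in control and 1.15 to 1.67 in silica on the log2 scale. With this ratio as a covariate the median over the genes described here was -0.05, in place of -0.11.

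No collagen, matrix or collagen-modifying gene of the list passed the threshold in either direction. Among all named genes 1.67% passed, 1.55% higher and 0.120% lower. The smallest adjusted p among the 41 genes was 0.11, for Sparc. The median log2 fold change was -0.11, against 0.02 over all named genes, and 27 of the 41 estimates were below 0 (65.9%, against 46.3% of all named genes). The list is bright, and bright genes were more often below 0. From the 75th to the 90th percentile of mean signal, which held 9 of the 41 genes, 49.9% of named genes were below 0. In the brightest 10%, which held 13, it was 56.3%, with a median of -0.03. The estimates ran from -0.66 for Fbln2 to 0.63 for Vcan. The samples are whole lung tissue, in which fewer cells of a type and less RNA per cell cannot be told apart. At an unadjusted limma p under 0.05 there were 2 genes higher and 5 lower, which is 17.1% of the list, while 19.9% of all named genes reached that level (12.6% higher and 7.24% lower).

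The arrays of the groups did not overlap, here called separated, for 13 of the 41 genes, or 31.7%, and the same was true of 31.4% of all named genes. Of the 13 genes 11 were lower in silica and 2 higher, where 12.7% of all named genes were separated downward and 18.7% upward. Downward separation was more common among bright probe sets in general. It held for 7.46% of named genes in the dimmer 50% by mean signal, for 13.0% from there to the 75th percentile, for 19.4% up to the 90th and for 27.9% of the brightest 10%. In the same strata 1 of 9, 2 of 10, 3 of 9 and 5 of 13 of the matrix genes were separated downward. For 40 of the 41 genes the unadjusted 95% confidence interval lay below 1 on the log2(signal + 16) scale. The exception was Vcan, with an upper bound of 1.33. The added 16 shrinks the fold changes of dim genes. For Fap, with a control mean of 26.9 and an upper bound of 0.92, a 2-fold rise in signal is not excluded. For 17 genes the whole interval lay within 0.5 of 0.

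**Figure D1:**
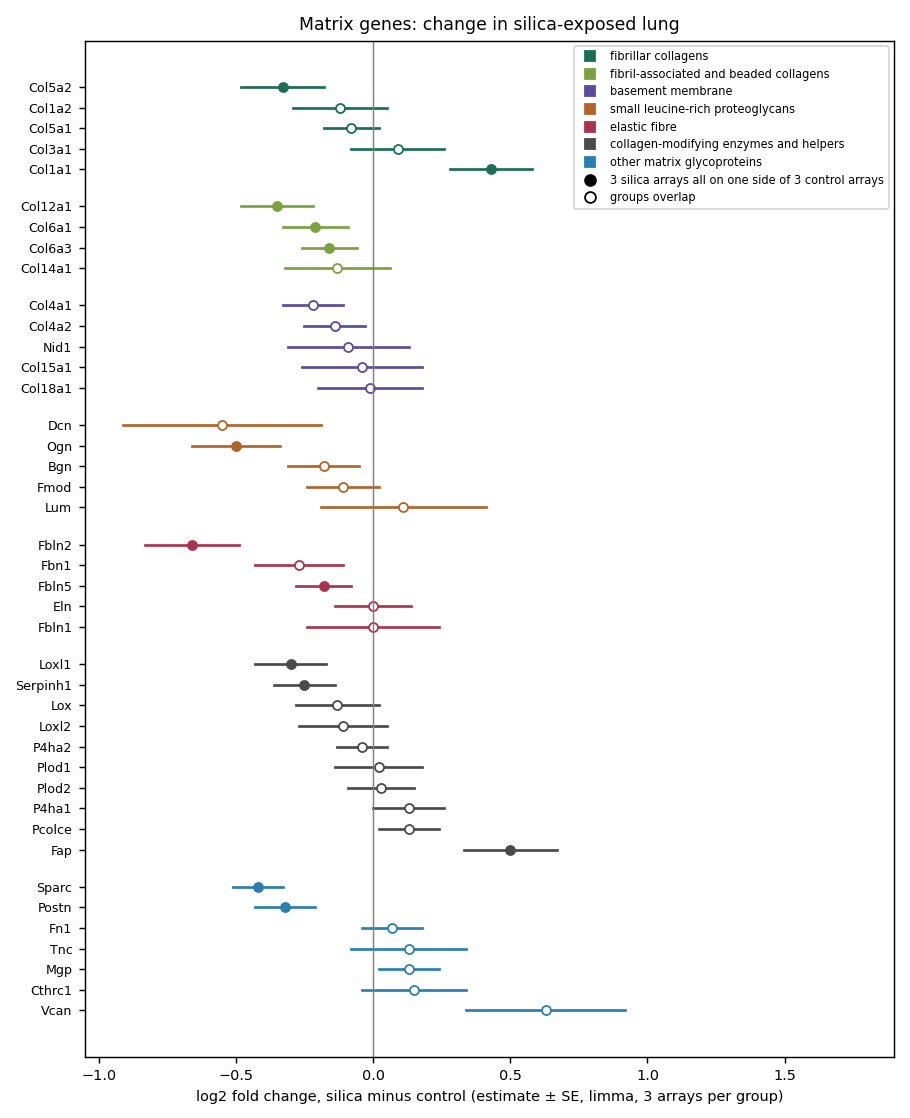
Log2 fold change (horizontal axis, silica minus control, estimate ± SE from limma, 3 arrays per group) of each of the 41 measured genes, grouped by role. Filled points mark the 13 genes whose arrays did not overlap, of which 11 lie left of 0; no gene passed the adjusted threshold, and most estimates lie close to 0.

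Fibrillar collagens, which carry the tensile strength of interstitial scar, were represented by 5 chains with a median of -0.08. Col1a1, the main chain of type I collagen, had signals of 712, 631 and 884 in the control arrays and 1085, 954 and 957 in the silica arrays. All silica arrays were above all control arrays (0.43 ± 0.15, adjusted p = 0.225). A dimmer Col1a1 probe set was separated in the same direction, with 0.20. Col1a2, its partner chain, had 3137, 2896 and 3959 in control and 2643, 3561 and 2954 in silica. The groups overlapped (-0.12 ± 0.17, adjusted p = 0.752), and the further probe set had -0.10. Col3a1, the type III chain that is laid down early in repair, had 4888, 4071 and 6226 in control and 5584, 5035 and 5297 in silica. All its silica values lay within the control range (0.09 ± 0.17, with an interval from -0.32 to 0.50). Col5a2, a chain of the type V collagen that starts fibrils, had 3540, 3567 and 4526 in control against 3340, 2684 and 3177 in silica. Its arrays were separated downward (-0.33 ± 0.15, adjusted p = 0.319), while the other type V chain, Col5a1, had -0.08 ± 0.10 and overlapping groups. Its further probe set had 0.04, of opposite sign. The fibrillar median was below 0 in 14 of 17 alternative settings, so it has no settled direction. Here and below, some of these settings do not test a sign. An intensity trend with robust spread, or a block for the replicate number, cannot change an estimate. Leaving out dim probe sets cannot change the estimates of the genes kept.

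The 2 chains of type I collagen are built into 1 trimer. Within each array the log2 signal of Col1a1 minus that of Col1a2 was -2.12, -2.17 and -2.14 in control and -1.27, -1.88 and -1.61 in silica. The control values were close together, all silica values were higher, and the difference between group means was 0.55. It lay between 0.40 and 0.70 in every alternative setting. With every combination of the probe sets of these chains the difference was positive, from 0.31 to 0.55, and 3 of 4 combinations were separated. An exact two-sided permutation test gave p = 0.1, the smallest that 3 against 3 arrays allow, and 0.2 after Benjamini-Hochberg adjustment over the 4 chain pairs compared. These pairs were picked after the values had been seen. Of the other pairs, Col5a1 minus Col5a2 was higher in silica by 0.26 with no overlap (exact p = 0.1, adjusted 0.2). It was 0.12 without control replicate 3 and 0.11 with the RNA quality covariate. Col4a1 minus Col4a2 (-0.08) and Col6a1 minus Col6a3 (-0.04) overlapped, and the type VI value was 0.17 when the probe sets of each gene were averaged. As the pairs were chosen for their values, these p-values support nothing beyond the description.

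**Figure D2:**
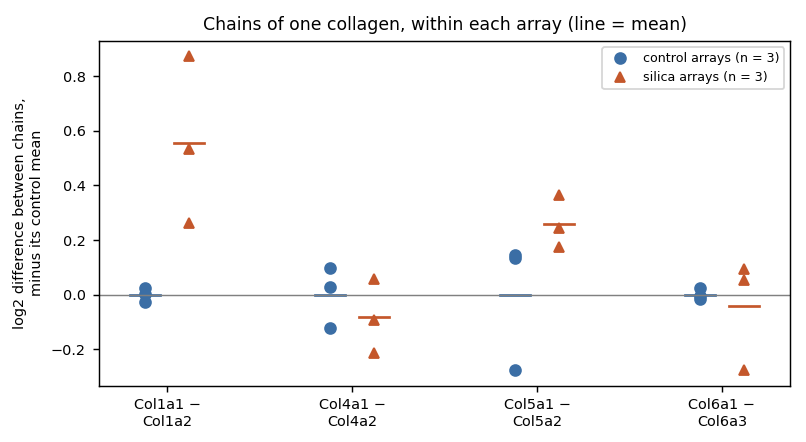
Log2 difference in signal between the chains of 1 collagen within each array, after subtraction of the control mean (vertical axis); circles are control arrays, triangles silica arrays and lines group means. The silica arrays lie above the control arrays for Col1a1 minus Col1a2 (mean 0.55) and for Col5a1 minus Col5a2 (0.26), and overlap them for the type IV and type VI pairs.

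The collagens that coat or link fibrils were all lower in estimate, in 4 of 4 cases, with a median of -0.19 that stayed below 0 in every alternative setting. Col12a1, a fibril-associated collagen of dense connective tissue, had 1079, 953 and 936 in control and 724, 703 and 903 in silica. The groups were separated, by a narrow gap at silica replicate 3 (-0.35 ± 0.13, adjusted p = 0.263). Its 2 further probe sets, at signals of 1.7 to 40.8, gave 0.18 and -0.04. The beaded-filament chains Col6a1 and Col6a3 were also separated, with smaller differences of -0.21 ± 0.12 and -0.16 ± 0.10. A dimmer Col6a3 probe set had -0.60, with 125, 133 and 171 in control and 64.3, 85.5 and 122 in silica. Col14a1, another fibril-associated collagen, overlapped in its brightest probe set (-0.13 ± 0.19) and was separated in its second (-0.31 ± 0.12). Control replicate 3 stood apart in the brightest one, at 726 against 482 and 454.

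Basement membrane genes had 5 of 5 estimates below 0 and a median of -0.09, below 0 in every alternative setting, and for none of them were the groups separated. Col4a1 and Col4a2 encode the chains of the common type IV collagen network. Col4a1 had 4067, 4385 and 4395 in control and 3508, 4148 and 3419 in silica, with silica replicate 2 above the lowest control array (-0.22 ± 0.11, adjusted p = 0.387). Col4a2 had -0.14 ± 0.11. These genes lie head to head on rat chromosome 16 and share a promoter, which is shown because both chains are described by it. In the RefSeq annotation of assembly GRCr8 their start sites are separated by 76 bases, chr16:84885521-84885596. Read on the Col4a1 strand, with the match to the GC box GGGCGG or its complement in capitals, this stretch is
Col4a1-Col4a2: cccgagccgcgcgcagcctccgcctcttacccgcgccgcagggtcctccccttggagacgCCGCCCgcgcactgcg
The difference between the chains did not exceed the spread between arrays, with a Col4a1 minus Col4a2 value of 0.89 ± 0.11 in control and 0.81 ± 0.13 in silica. Nid1, which links laminin to type IV collagen, had -0.09 ± 0.22. The multiplexin collagens Col15a1 and Col18a1, whose end fragments include endostatin, had -0.04 ± 0.22 and -0.01 ± 0.19. Col15a1 was high on silica replicate 1 alone, at 1399 against 858 and 897 on the other silica arrays.

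Small leucine-rich proteoglycans bind fibrils and limit their width. Their median was -0.18, and it stayed below 0 in every alternative setting. Ogn, osteoglycin, had 4342, 3554 and 4959.9 in control against 2873, 2743 and 3430 in silica. The groups did not overlap (-0.50 ± 0.16, adjusted p = 0.205). Of its 3 further probe sets, 2 were separated as well, with -1.19 ± 0.33 and -0.92 ± 0.27, and 1 overlapped, with -0.20 ± 0.15. The sign of the Ogn difference was the same in all 4 probe sets and its size was not. Dcn, decorin, had an estimate of -0.55 ± 0.36. Its control signals were 2784, 1981 and 4758 and its silica signals 1479, 2167 and 2606, and control replicate 3 was the highest by a wide margin. Bgn and Fmod, biglycan and fibromodulin, had -0.18 ± 0.13 and -0.11 ± 0.13. Lum, lumican, was the only one of the 5 above 0 (0.11 ± 0.30), and its control signals ran from 402 to 935.

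Among the elastic fibre genes the median was -0.18 and was below 0 in every alternative setting, with elastin itself at an estimate near 0. Eln had 740, 722 and 644 in control and 692, 816 and 609.5 in silica, and the estimate was 0.00 ± 0.14 in size, with an interval from -0.33 to 0.33. A second Eln probe set gave -0.16. Fbln2, an extracellular glycoprotein of elastic fibres and vessel walls, had the largest difference of the whole list. Its signals were 286, 237 and 369 in control and 190, 161 and 187 in silica, with the groups apart (-0.66 ± 0.17, adjusted p = 0.149). Fbln5, which is needed to assemble elastic fibres, was separated by a smaller step (-0.18 ± 0.10). Fbn1, the microfibril scaffold, had -0.27 ± 0.16 with overlap, and -0.38 ± 0.17 without overlap in a second probe set. Fbln1 had 0.00 ± 0.24.

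Collagen-modifying enzymes and helpers were spread around 0, with 5 of 10 above it and a median of -0.01 whose sign depended on the setting. The crosslinking enzyme gene Lox had 2001, 1689 and 1538 in control against 1484, 1824 and 1456 in silica, and the groups overlapped (-0.13 ± 0.15, adjusted p = 0.693). Loxl1, the lysyl oxidase linked to elastin, had 2192, 2127 and 2198 in control and 1776, 2031 and 1526 in silica. It was separated downward (-0.30 ± 0.13, adjusted p = 0.309). Loxl2 had -0.11 ± 0.16. Serpinh1, the collagen chaperone HSP47, had 2084, 2402 and 2461 in control and 1879, 1872 and 2074 in silica. The groups were separated by a narrow gap (-0.25 ± 0.11, adjusted p = 0.321), while a dim Serpinh1 probe set gave 0.24.

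The hydroxylases lay close to 0. P4ha1 and P4ha2, the catalytic subunits of prolyl 4-hydroxylase, had 0.13 ± 0.13 and -0.04 ± 0.09, and the lysyl hydroxylase genes Plod1 and Plod2 had 0.02 ± 0.16 and 0.03 ± 0.12. None of these 4 was separated in its brightest probe set. A dim P4ha2 probe set was separated upward, with 49.2, 39.1 and 40.7 in control and 60.2, 62.6 and 95.4 in silica (0.57 ± 0.18, adjusted p = 0.191). Pcolce, which speeds removal of the procollagen end peptide, had 0.13 ± 0.11. Fap, a surface protease of activated fibroblasts, was one of the pair of genes separated upward. Its signals were dim, at 27.9, 34.1 and 18.8 in control and 36.1, 50.2 and 46.4 in silica (0.50 ± 0.17, adjusted p = 0.225), and the estimate ranged from 0.25 to 0.72 over the alternatives.

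The other glycoproteins included the gene with the smallest p of the list. Sparc, a collagen-binding matricellular protein, had 11932, 11141 and 11763 in control and 8524, 9071 and 8510.4 in silica. The gap between the groups was wider than the range within either (-0.42 ± 0.09, adjusted p = 0.11), and a second Sparc probe set was separated the same way with -0.23. Postn, periostin, had 7549.7, 7822 and 8562 in control and 6971, 5811 and 6420 in silica. It was separated downward as well (-0.32 ± 0.11, adjusted p = 0.236). Fn1, fibronectin, had 7405, 7038 and 8231 in control and 7477, 8414 and 7811 in silica, and the groups overlapped (0.07 ± 0.11, with an interval from -0.20 to 0.33).

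Vcan, the large proteoglycan versican of provisional matrix, had the highest estimate of the list. Its brightest probe set had 95.6, 138 and 87.6 in control and 121, 260 and 159 in silica. The groups overlapped at 1 array (0.63 ± 0.29, adjusted p = 0.331). Its 4 further probe sets, all dimmer, gave 0.65, 0.72, 0.91 and 1.00, and 3 of them were separated upward. The one with 1.00 ± 0.26 had 51.9, 79 and 72.5 in control and 140, 218 and 109 in silica (adjusted p = 0.145). In 4 of the 5 probe sets silica replicate 2 was the highest array. Tnc, Cthrc1 and Mgp, the repair glycoprotein tenascin C, a gene of collagen-producing fibroblasts and the mineralization inhibitor matrix Gla protein, had 0.13 ± 0.21, 0.15 ± 0.19 and 0.13 ± 0.11, all with overlap. The median of the 7 glycoproteins was 0.13, but -0.00 without control replicate 2 and 0.04 without silica replicate 2.

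**Figure D3:**
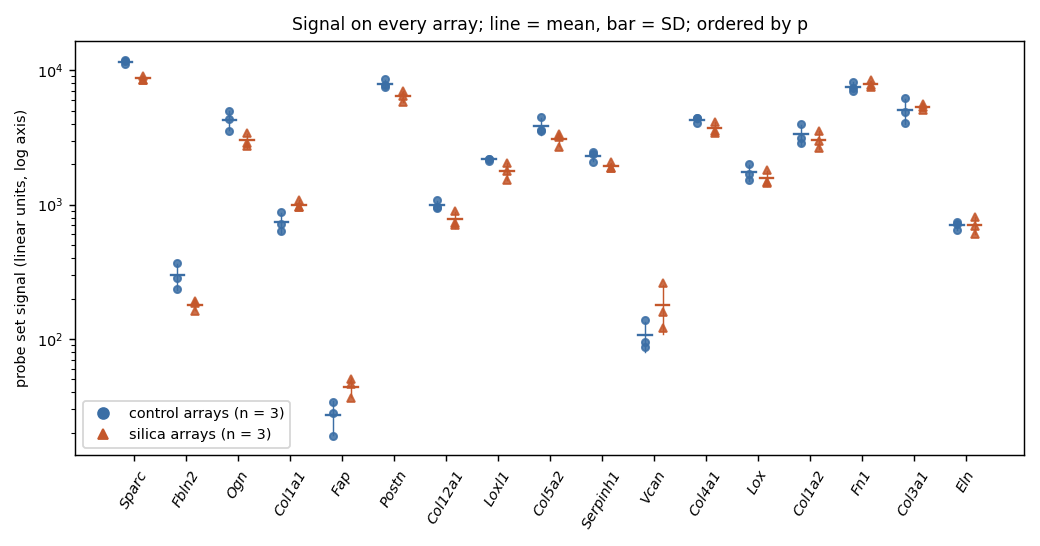
Signal (vertical axis, linear units on a log axis) of the 12 genes with the smallest p and of Lox, Col1a2, Fn1, Col3a1 and Eln, ordered by p; circles are the 3 control arrays, triangles the 3 silica arrays, lines the mean and bars the SD. Sparc, Fbln2, Ogn, Postn, Col12a1, Loxl1, Col5a2 and Serpinh1 have every silica array below every control array, Col1a1 and Fap every silica array above, and the others overlap.

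Sparc, Postn, Ogn and Fbln2 were the genes that passed under other settings of the same test, always as lower in silica. With an intensity trend and robust spread in limma all of them passed (adjusted p = 0.00317 for Sparc, 0.0437 for Postn, 0.0419 for Ogn and 0.0459 for Fbln2). That is 9.8% of the list, all lower, where 8.57% of all named genes passed under that setting, 2.61% of them as lower. With the dimmer 50% of probe sets left out Sparc and Fbln2 passed, of 38 genes still tested (11.4% of named genes passed, 3.22% lower). With a pseudocount of 64 Sparc passed (4.35% of named genes passed, 0.703% lower). No gene of the list passed as higher under these settings, where 5.96%, 8.20% and 3.65% of named genes did.

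The promoters of these 4 genes are shown because each passed under at least 1 alternative setting. Their downward separation was shared with other genes of the list, 11 in all. Each line gives the 250 bases before the annotated start in RefSeq GRCr8, with matches to the GC box GGGCGG, the CCAAT box and the TATAAA box on either strand in capitals; the positions are chr10:40038817-40039066 (minus strand) for Sparc, chr2:140677811-140678060 (plus strand) for Postn, chr17:15258996-15259245 (minus strand) for Ogn and chr4:125261409-125261658 (plus strand) for Fbln2.
Sparc: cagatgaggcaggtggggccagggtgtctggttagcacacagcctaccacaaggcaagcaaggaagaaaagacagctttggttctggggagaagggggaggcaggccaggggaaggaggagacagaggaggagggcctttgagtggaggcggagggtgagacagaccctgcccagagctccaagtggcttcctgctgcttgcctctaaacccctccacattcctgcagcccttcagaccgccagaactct
Postn: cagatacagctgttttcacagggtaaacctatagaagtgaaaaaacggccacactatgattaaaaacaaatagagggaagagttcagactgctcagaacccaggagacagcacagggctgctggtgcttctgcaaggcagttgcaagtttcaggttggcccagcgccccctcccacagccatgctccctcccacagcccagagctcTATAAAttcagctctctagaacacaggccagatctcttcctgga
Ogn: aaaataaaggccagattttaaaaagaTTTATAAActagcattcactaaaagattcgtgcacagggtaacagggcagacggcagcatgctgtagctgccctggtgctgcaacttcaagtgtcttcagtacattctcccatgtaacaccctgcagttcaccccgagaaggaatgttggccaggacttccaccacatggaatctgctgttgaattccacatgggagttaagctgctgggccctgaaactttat
Fbln2: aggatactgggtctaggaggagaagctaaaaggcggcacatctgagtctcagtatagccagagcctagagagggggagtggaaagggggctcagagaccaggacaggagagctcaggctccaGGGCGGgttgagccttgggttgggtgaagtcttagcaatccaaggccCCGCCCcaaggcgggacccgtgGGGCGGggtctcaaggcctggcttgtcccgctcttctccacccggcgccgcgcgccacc
None of these 3 motifs was found in all of the windows. Fbln2 held 3 GC boxes, Postn 1 TATAAA, Ogn 2 matches to TATAAA that overlap on opposite strands, and Sparc no match. The table held such a window for 28 of the 41 genes. GGGCGG was in 53.6% of them and in 30.5% of all 33469 windows, CCAAT in 7 of 28 and in 34.0%, and TATAAA in 14.3% and 12.9%. The units differ: the first share counts genes with a match in any of their windows, and the second counts single windows. A match is a description of the letters and not evidence of a working site.

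Further probe sets gave a check on single estimates for 21 of the genes. In 15 of them all probe sets had the same sign. Those that differed were Col5a1, Col12a1, Col18a1, Loxl2, P4ha2 and Serpinh1. Over all 68 probe sets 42 estimates were below 0 (61.8%, against 50.2% of all probe sets on the array). There were 18 separated downward (26.5%, against 12.2%) and 7 upward (10.3%, against 13.3%). The shares over the array are not matched for signal. None passed the threshold, against 1.08% of all probe sets.

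**Figure D4:**
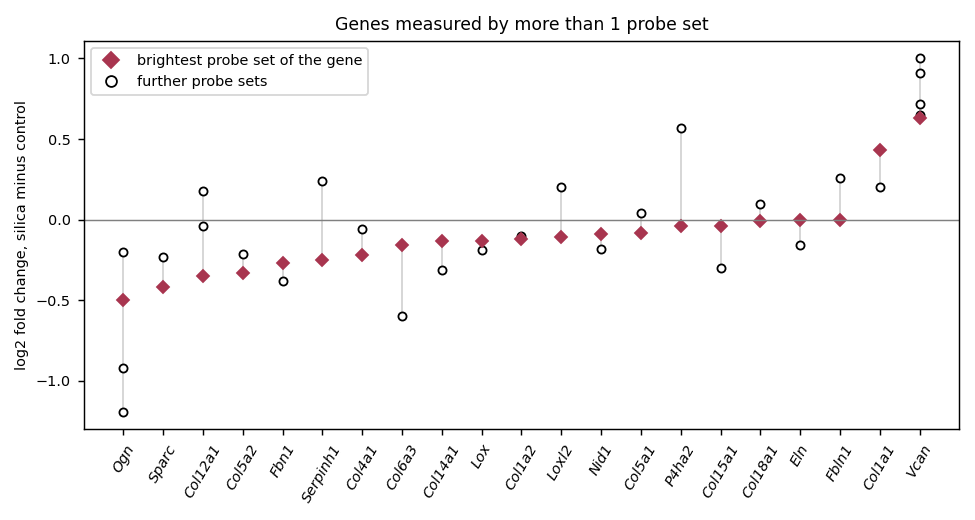
Log2 fold change (vertical axis, silica minus control) of every probe set of the 21 genes measured more than once; diamonds are the brightest probe set and circles the others. All 4 Ogn probe sets lie below 0, from -1.19 to -0.20, and all 5 Vcan probe sets lie above 0, from 0.63 to 1.00.

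The matrix genes also differed between arrays of the same group. The median of the 41 genes, as log2 signal minus each gene's control mean, was -0.03, -0.05 and 0.09 in control replicates 1 to 3 and -0.18, -0.04 and -0.13 in silica replicates 1 to 3. Control replicate 3 was the highest and silica replicate 2 overlapped the control arrays. Control replicate 3 had the highest signal of all 6 arrays for 17 of the 41 genes, and silica replicate 2 for 12. Without control replicate 3 the median over the list was -0.06, and without silica replicate 1 it was -0.05. Control replicate 3 also had the lowest ratio of 3-prime to 5-prime signal (0.99) and silica replicate 1 the highest (1.67). Cardiac muscle markers, 7 measured, differed widely within groups, with sums of 293 to 3889.6 in control and 863.8 to 2746.6 in silica. Whether this bears on the matrix genes was not tested. In the fibril-associated collagens and the elastic fibre genes every silica array lay below every control array, and in the basement membrane genes the groups met at -0.10.

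**Figure D5:**
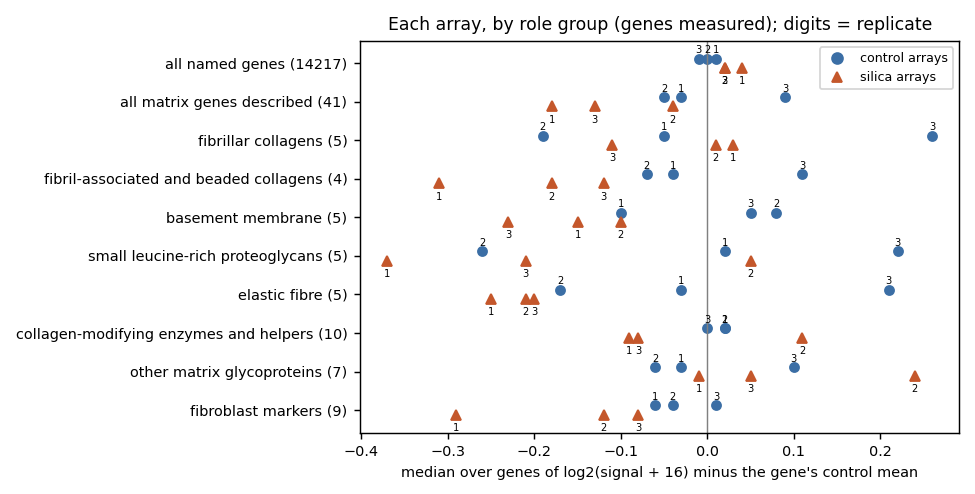
Median over the genes of each role group of log2(signal + 16) minus the gene's control mean (horizontal axis), for each array; circles are control arrays, triangles silica arrays and digits the replicate. The silica medians of the fibril-associated collagens (-0.31 to -0.12) and elastic fibre genes (-0.25 to -0.20) lie below all control medians, those of the basement membrane genes meet the lowest control median at -0.10, and the other role groups and the list as a whole overlap.

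Of 9 measured fibroblast markers 7 had estimates below 0 (77.8%), 4 were separated downward (44.4%) and none passed the threshold. Among all named genes 46.3% were below 0 and 12.7% separated downward. Downward separation reached 19.4% from the 75th to the 90th percentile of mean signal and 27.9% in the brightest 10%. The shares below 0 there were 49.9% and 56.3%. Thy1 and Pi16 had estimates above 0, at 0.35 and 0.28. The summed fibroblast signal was 12656 to 13820.4 in control and 9815 to 11469.5 in silica. Inmt, a marker of alveolar fibroblasts in rodents, had -0.56 ± 0.13 (adjusted p = 0.112), and the mesenchymal transcription factor gene Meox2 had -0.60 ± 0.16 (adjusted p = 0.151). Lower sums without overlap were not particular to fibroblast markers. Endothelial markers summed to 47400.3 to 49116 in control and 39331.1 to 44559.9 in silica, alveolar type 1 markers to 68617.9 to 72030.3 and 57599 to 62137.8, and mesothelial markers to 10164.3 to 11357 and 8885.6 to 9196.2. The mesothelial sum was carried mainly by Krt19 (6469 in control, 5045 in silica) and Krt7 (3001 and 2466). Of the 5 mesothelial markers 4 had estimates below 0, but Msln was separated upward (690 and 833, 0.26 ± 0.11). Wt1 had -0.02 ± 0.23. Among endothelial markers Pecam1 (0.04) and among alveolar type 1 markers Clic5 (0.78) were above 0. Smooth muscle markers overlapped, with summed signals of 5435 to 6786 in control and 5242 to 5849.8 in silica. Alveolar type 2 markers overlapped as well, at 125529.3 to 130552.9 in control and 116534.6 to 136355.7 in silica. The summed T cell markers were higher in silica, at 3353 to 4555 against 1622 to 1993, as were the macrophage markers, at 14416.5 to 15740.4 against 10654 to 11453. The part of these shifts in the matrix results was not tested.

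The wider matrix was read from a list of 118 other collagens, laminins, processing enzymes, elastic fibre genes and glycoproteins, of which 100 were measured. Of these, 3 passed as higher and none as lower, where 1.67% of all named genes passed. Spp1, osteopontin, which macrophages also make, had 1520, 1125 and 1453 in control and 3415, 3929 and 4062 in silica (1.47 ± 0.15, adjusted p = 0.0298). Col9a2, a chain of cartilage type IX collagen, rose from 101, 99.3 and 88 to 198, 249 and 176 (0.99 ± 0.15, adjusted p = 0.0468). Comp, a glycoprotein of cartilage and scar, rose from 35, 35 and 42.4 to 74.2, 69.7 and 68.3 (0.70 ± 0.10, adjusted p = 0.0468). Other cartilage genes were dim in both groups: Col2a1 had 46.4 ± 8.29 in control and 28.0 ± 8.06 in silica, and Acan 49.9 ± 13.8 and 56.6 ± 18.5. The cartilage markers without Col9a2 and Comp summed to 172.8 to 253.9 in control and 170.8 to 219.6 in silica. Next in order of p came Col7a1, the anchoring fibril collagen (0.57 ± 0.09, adjusted p = 0.0604). The 3 calls depend on the setting. None of them passed when any single array was left out (smallest adjusted p 0.0841, for Spp1 without silica replicate 1), with the replicate number as a block (0.153 for Spp1 and Col9a2, 0.166 for Comp), with the RNA quality covariate or with pseudocount 1. Few or no probe sets of the 31042 passed in those fits: 0 to 12 with 1 array left out, 1 with the block, 0 with the covariate and 43 with pseudocount 1. Failing there says little about these 3 genes in particular. Spp1 alone of the 3 passed with quantile normalization (adjusted p = 0.03) and with array medians centred (0.0279). An intensity trend and robust spread left Spp1 (0.00016) and Col9a2 (0.00879) past the threshold. Comp, whose signals are also dim, did not pass there (0.0869). All 3 estimates were above 0 in every alternative that tested them. With an intensity trend and robust spread 6 of the 100 genes passed as higher and 10 as lower, where 5.96% and 2.61% of all named genes did. With the dimmer 50% of probe sets left out these counts were 5 and 7 of 64 tested, against 8.20% and 3.22%. With pseudocount 64 there were 4 and 3 of 100, against 3.65% and 0.703%.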

How the data were processed

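The deposited values are linear signal intensity values, 1 per probe set and array. The labels' protocols name a phenol-based RNA extraction and biotin-labelled cRNA for short-oligonucleotide arrays; they do not name the summarising software. The deposited intensity values had a mean of 500.14 to 500.15 on every array after trimming 2% at each end. Of 31099 probe sets 57 were controls. Names came from the platform annotation, updated by gene identifier to RefSeq GRCr8. Values were analysed as log2(signal + 16) with limma 3.58.1 (lmFit, eBayes; R 4.3.3), with no term besides group (degrees of freedom: 4 residual, 2.18 prior). The fit was tested on simulated data. The rule for detailed values took the 12 smallest p and Col1a1, Col1a2, Col3a1, Fn1, Eln and Lox, and, of the wider list, genes that passed or the 4 smallest p. Array values outside this rule (Dcn, Col14a1, Col15a1, Lum and further probe sets) were picked after they had been seen. Depth is limited by the number of arrays. The labels do not say whether rats shared a chamber, so p-values measure the spread between these animals. The genes and lists were chosen with earlier results of these data known. Alternatives were the normalization, pseudocount, dim probe sets, spread, array weights, probe set rule, RNA quality covariate, replicate block and arrays left out. Leaving out control replicate 3 with silica replicate 1, the chain pairs and the wider list's settings were added after seeing the data.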

Additional observations from a re-analysis of the deposited data

How the results depend on the processing

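Among the 41 genes none passed under quantile normalization, median centring, pseudocount 1, array weights, the mean of all probe sets or an adjusted p threshold of 0.1. None passed with the RNA quality covariate or without each array in turn either, but then almost nothing on the array passed: 0 of 31042 probe sets with the covariate, and 0, 1 and 0 without control replicates 1, 2 and 3 and 12, 3 and 0 without silica replicates 1, 2 and 3. Those fits say nothing of stability. Genes did pass with the dimmer 50% of probe sets left out (2 genes), with an intensity trend and robust spread (4) or with pseudocount 64 (1), all lower in silica; which step of these settings brought the calls was not tested. The median over the list stayed below 0, between -0.14 and -0.04. With the RNA quality covariate it was -0.05, Dcn turned from -0.55 to 0.04, and 1 gene had an unadjusted limma p under 0.05 in place of 7. Without control replicate 3 and silica replicate 1 together Dcn was 0.02 and 24 genes were separated (58.5%, against 50.4% of all named genes with these 4 arrays) in place of 13. With 1 array left out, between 15 and 18 genes were separated, which is 36.6 to 43.9% of the list, against 39.3 to 42.6% of all named genes. In all, 25 genes kept their sign in every alternative that tested them, 18 below 0 and 7 above. Another 16 changed it in at least 1, and except for Dcn these had estimates within their SE of 0. The intensity trend with robust spread and the replicate block cannot change an estimate. Leaving out dim probe sets cannot change those of the genes kept, so these settings do not test the sign. With the replicate number as a block 0 genes passed, as did only 1 probe set of the array, and the median was -0.11, with a smallest adjusted p of 0.189; same-numbered arrays had correlations of deviations of 0.09, 0.04 and 0.09, each the highest for its array, which is a hint from the data and does not establish a pairing. Groups of 3 arrays limit what these values can show. Of the wider list of 100 genes, 3 passed, and 1 did with quantile normalization or median centring. There were 12 of 64 tested with the dimmer 50% left out (11.4% of named genes passed). An intensity trend and robust spread gave 16 (8.57%), and pseudocount 64 gave 7 (4.35%). None passed with pseudocount 1, the replicate block, the covariate, control replicate 3 and silica replicate 1 left out together, or any 1 array left out. In those fits at most 43 of 31042 probe sets passed, so the counts followed the number of calls on the array.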
